A study of Mus musculus with 6 samples.

Results

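The genes described here are the Wnt ligands, their Frizzled and R-spondin receptors, their secreted antagonists, and the feedback genes and nuclear factors of the pathway, measured by mRNA sequencing in embryonic mouse pancreas. Members were taken by symbol: every listed Wnt, Frizzled, Sfrp, Dkk, Lgr4 to Lgr6 and R-spondin gene, together with Notum, Wif1, Axin2, Lef1, Tcf7, Tcf7l2, Nkd1, Sp5, Rnf43, Znrf3 and Tnfrsf19. This gave 55 of the 23337 gene symbols in the count files. All embryos were of the NMRI strain at E13.5. The mutant group held 3 pools of pancreata that carry the label Prox1-nullyzygous and the genotype Prox1 GFPCre/D, and the control group held 3 pools labelled wildtype. Each pool combined 5 to 6 pancreata of 1 genotype and gave 1 library. What the mutant alleles lack of Prox1 is not stated in the labels, nor is a cell type to which the loss is limited. Prox1 itself, a homeobox transcription factor gene, stood at 83.6, 104.5 and 91.7 CPM in mutant pools 1 to 3 and at 105, 103 and 107 CPM in control pools 1 to 3, so its count does not check the genotype labels.

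Wnt proteins are secreted, lipid-modified signals that bind a Frizzled receptor and a co-receptor of the Lrp family. In the canonical branch this binding protects β-catenin from destruction, and β-catenin then acts with factors of the TCF/LEF family on target genes, several of which encode inhibitors of the pathway itself. R-spondins act through Lgr receptors and keep Frizzled proteins at the cell surface by removing the ligases Rnf43 and Znrf3. In the embryonic pancreas both the epithelium and the surrounding mesenchyme make Wnt proteins, and the pathway is known to act in growth of the organ.

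Total counts ran from 16060424 to 17633867 reads per library, and 1 CPM, a count scaled to the effective library size, stood for 15.9 to 17.5 reads. The tissue label was checked against markers: Pdx1, Ptf1a and Cpa1, which mark pancreatic epithelium, were present in all 6 libraries, with Cpa1 between 885 and 1990 CPM. Xist, the RNA of the inactive X chromosome, was at 0.126 CPM in mutant pool 1 and 0.526 CPM in control pool 3 and between 2015 and 2814 CPM in the other pools. Control pool 2 stood apart in muscle and foregut transcripts: it held 73.6 CPM of the smooth muscle myosin gene Myh11 and 5.73 CPM of the foregut factor gene Sox2, where no other pool exceeded 6.54 and 0.716 CPM.

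Of the 55 members, 42 had enough reads to be tested, and 7 of these were called changed in mutant pancreas. The Frizzled receptor genes Fzd5 and Fzd7 and the antagonist gene Sfrp1 were higher in mutants by about 1.6-fold. The ligand gene Wnt7b, the Wnt deacylase gene Notum, the ligase gene Rnf43 and the transcription factor gene Lef1 were lower, with Notum down to 0.271 of its control level. A gene was called at an adjusted p under 0.05 in edgeR's quasi-likelihood test, adjusted by Benjamini-Hochberg over all 14687 genes tested. The members called were 16.7% of those tested, while 7.95% of all genes tested were called. Fzd5, Fzd7, Sfrp1 and Notum, 4 of 42, also had an adjusted p under 0.01, where 3.21% of all genes did. By direction, 3 of 42 members were called higher, where 3.67% of all genes were, and 4 were called lower, where 4.28% were. Whether the share among members differs from that of all genes was not tested. Each library came from a whole organ of mixed cell types, so fewer cells of a type and less RNA per cell cannot be told apart for any of these genes.

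**Figure D1:**
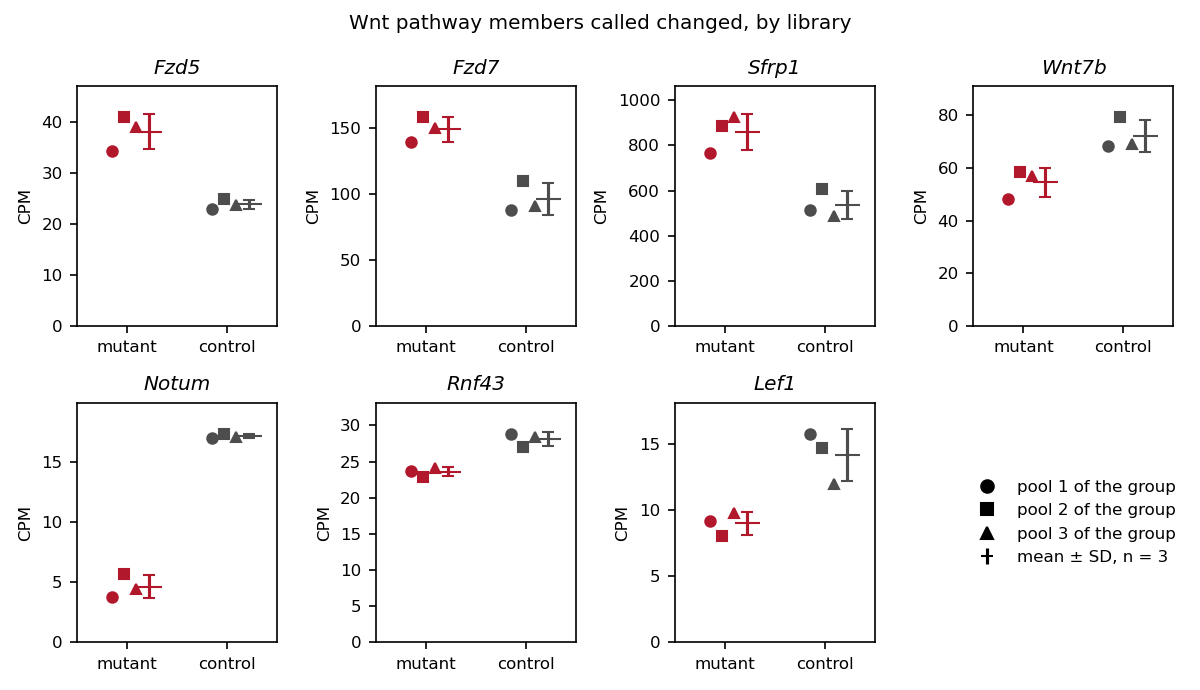
CPM of the 7 called members in every library, with mutant pools left (red) and control pools right (grey); symbols mark the pool number and bars the mean ± SD over 3 pools. The groups do not overlap for any of the 7 genes, and Notum lies between 3.77 and 5.66 CPM in mutants and between 17 and 17.4 CPM in controls.

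Among the ligands, 10 of 19 genes were tested, 1 was called lower and 0 higher by edgeR, DESeq2 and voom alike, and 2, Wnt4 and Wnt6, were higher at an unadjusted p under 0.05. Of all genes tested, 10.9% were higher and 10.2% lower at that unadjusted threshold. Wnt7b, a ligand of the pancreatic progenitor epithelium (chromosome 15, 85535437 to 85582473, minus strand), had 48.4, 58.6 and 56.9 CPM in mutant pools 1 to 3 and 68.4, 79.3 and 69.3 CPM in control pools 1 to 3. Every mutant pool lay below every control pool. The means were 54.6 ± 5.46 CPM in mutants and 72.3 ± 6.06 CPM in controls (SD, n = 3 each), a log2 fold change of -0.40 (SE 0.0854, edgeR adjusted p = 0.0223). The Wnt7b call rested on single libraries: the edgeR adjusted p was 0.0529 once mutant pool 1 was left out, 0.0527 for mutant pool 3 and 0.0505 for control pool 1. An annotated antisense gene, AU022754, overlaps 324 bases of Wnt7b exon and had 44, 80 and 71 reads in mutant pools and 84, 108 and 73 reads in control pools.

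Set side by side per kb of annotated exon, the most abundant ligand transcripts were Wnt7b at 11.2 CPM per kb in mutants and 14.8 in controls, Wnt5a at 9.98 in mutants and 10.8 in controls, Wnt2b at 10.1 in mutants and 8.75 in controls, and Wnt5b at 7.57 in mutants and 7.64 in controls. Wnt9a, Wnt4 and Wnt11 followed at 1.93 to 4.03 CPM per kb, and Wnt7a, Wnt3 and Wnt6 stayed below 0.6 CPM per kb in both groups. The order at the top depends on the length used: per kb of mean annotated transcript, Wnt5a led with 34.1 CPM per kb in mutants and 36.9 in controls, ahead of Wnt7b with 20.6 in mutants and 27.2 in controls. Wnt5a, a ligand known mainly for signalling without β-catenin, had 77.7, 75.2 and 81.3 CPM in mutant pools and 79.5, 98.3 and 75.8 CPM in control pools. Its groups overlapped, and the highest value came from control pool 2. Wnt2b, a canonical ligand, had 51.8, 36.9 and 38.2 CPM in mutant pools against 41.1, 33.7 and 35.4 CPM in control pools, which also overlapped. Neither was called, with log2 fold changes of -0.11 for Wnt5a (95% interval -0.29 to 0.07) and 0.20 for Wnt2b (-0.06 to 0.46).

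Wnt6 showed the highest log2 fold change of any tested member, 1.28 (SE 0.344), and was not called (edgeR adjusted p = 0.0573). It had 1.51, 1.12 and 1.03 CPM in mutant pools and 0.597, 0.305 and 0.584 CPM in control pools. Its groups did not overlap, but the counts behind them were at most 24 reads in mutants and at most 10 in controls. Wnt4, a ligand with roles in kidney and gonad, averaged 16.9 ± 3.9 CPM in mutants and 12.3 ± 1.37 CPM in controls (SD, n = 3 each), overlapped between groups and was not called (edgeR adjusted p = 0.156). Without mutant pool 3, the lowest of the mutant pools for Wnt4, the adjusted p in edgeR was 0.0283. Without other single pools Wnt4 was not called, with an edgeR adjusted p of up to 0.408. Wnt11, whose log2 fold change was near 0, ranged from 7.31 to 9.12 CPM in mutants and from 5.9 to 11.6 CPM in controls, with the highest value again in control pool 2. The 9 ligands below the filter were Wnt1, Wnt3a and Wnt8a, with no read in any library, and Wnt2, Wnt8b, Wnt9b, Wnt10a, Wnt10b and Wnt16, with at most 12 reads in any library. Wnt10b had 7, 8 and 5 reads in mutant pools and 2, 0 and 2 reads in control pools, too few for the test.

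All 10 Frizzled genes were tested, and 2 were called higher and 0 lower by edgeR, DESeq2 and voom alike. At an unadjusted p under 0.05 in edgeR, 5 of 10 were higher and 0 lower, against 10.9% higher and 10.2% lower among all genes tested, and whether these shares differ was not tested. Fzd7, a receptor that can carry canonical signals (chromosome 1, 59482424 to 59486955, plus strand), had 139.5, 158 and 150.02 CPM in mutant pools and 87.6, 110.2 and 90.6 CPM in control pools. The lowest mutant pool was above the highest control pool. Fzd7 averaged 149 ± 9.4 CPM in mutants and 96.2 ± 12.3 CPM in controls (SD, n = 3 each), a log2 fold change of 0.63 (SE 0.0863, edgeR adjusted p = 0.00307). Fzd5, a receptor of gut and eye epithelia (chromosome 1, 64730558 to 64737751, minus strand), had 34.2, 40.9 and 39.1 CPM in mutant pools and 22.9, 24.9 and 23.6 CPM in control pools. These groups were also apart, with a log2 fold change of 0.68 (SE 0.08, edgeR adjusted p = 0.00147). Of the 6915 exon bases of Fzd5, 1233 overlap Gm38058, a gene annotated on the opposite strand. Both calls held with each library left out in turn, with edgeR adjusted p of at most 0.011 for Fzd5 and 0.0166 for Fzd7.

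Fzd2 was the most abundant receptor per kb of exon, at 45.5 CPM per kb in mutants and 40.5 in controls, and Fzd7 was next, at 32.9 in mutants and 21.2 in controls. Per kb of mean transcript, Fzd3 was just above Fzd7 in controls, at 21.5 against 21.2, but not in mutants, at 24.4 against 32.9. Fzd7 accounted for 24.5% ± 0.982 of the summed Frizzled level per kb of exon in mutants and 19.3% ± 0.957 in controls (SD, n = 3 each). Fzd2 had 158, 174 and 169 CPM in mutant pools and 142, 170.0 and 133 CPM in control pools. The groups overlapped through control pool 2, and the log2 fold change of 0.17 was not called (edgeR adjusted p = 0.302). The edgeR adjusted p of Fzd2 was 0.0137 without control pool 2. It was up to 0.592 without other single pools, where Fzd2 was not called. Of the 8 receptor genes not called, Fzd6 and Fzd8 did not overlap between groups, with log2 fold changes of 0.24 and 0.22. Fzd1, Fzd3 and Fzd4 overlapped, with log2 fold changes between 0.17 and 0.24, and Fzd3 had an edgeR adjusted p of 0.0319 without mutant pool 1. Without other single pools Fzd3 was not called, with an edgeR adjusted p of up to 0.619. Fzd9 and Fzd10 stood at 3.42 CPM or less in every library, with log2 fold changes of -0.07 and -0.27.

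**Figure D2:**
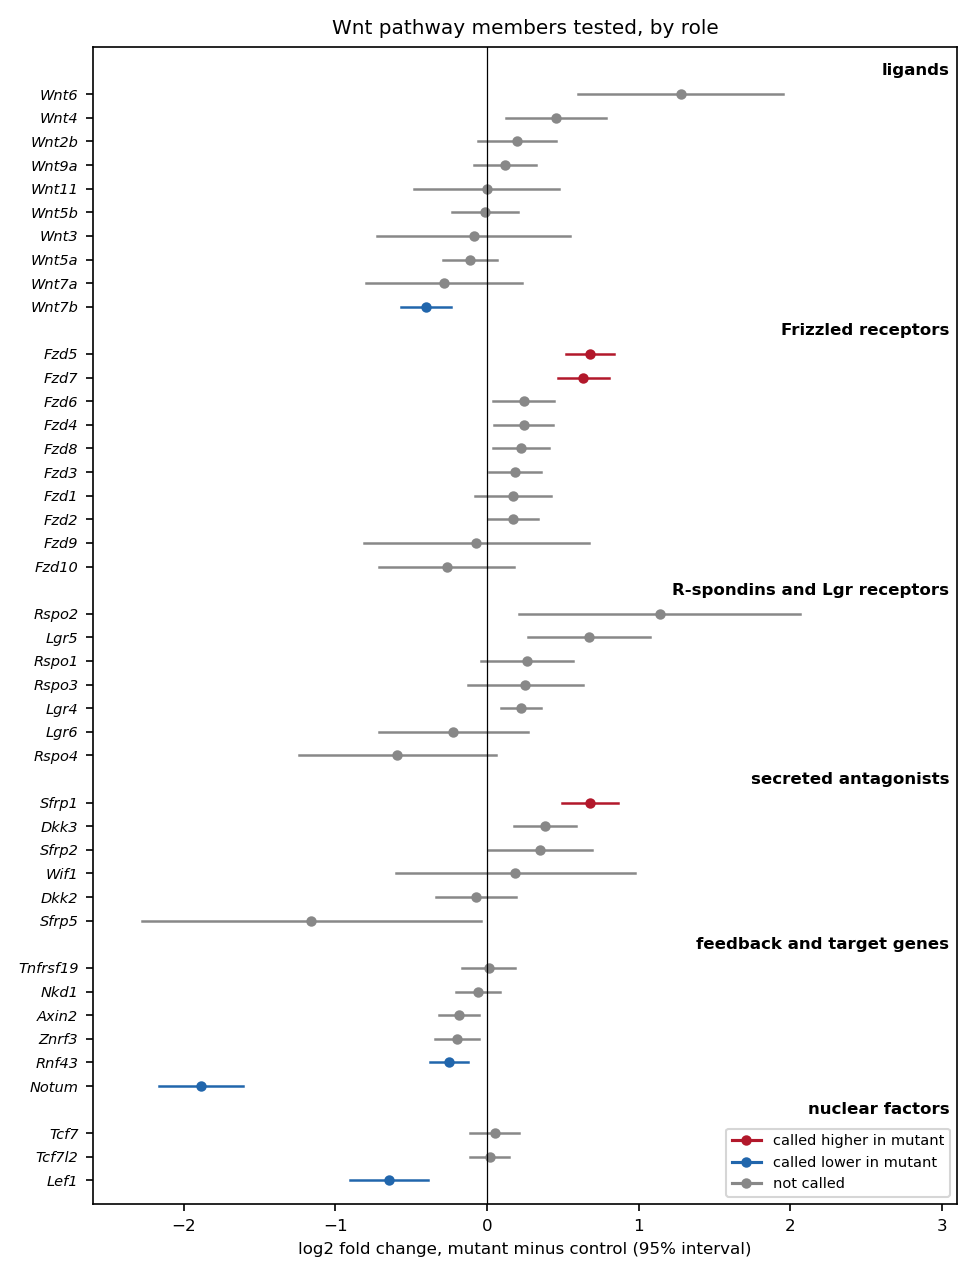
Log2 fold change, mutant minus control, with 95% interval for the 42 members tested, grouped by role and sorted within each; red and blue mark genes called higher and lower in mutants. Notum lies farthest from 0 among the called genes, at -1.89, and 8 of the 10 Frizzled genes lie right of 0.

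None of the 7 R-spondin and Lgr genes tested was called by edgeR, DESeq2 or voom, where edgeR called 7.95% of all genes tested. At an unadjusted p under 0.05 in edgeR, 3 were higher, namely Lgr4, Lgr5 and Rspo2, and 0 lower. Among all genes tested, 10.9% were higher and 10.2% lower at that threshold, and whether these shares differ was not tested. Lgr4, a widely expressed R-spondin receptor and the most abundant of this set per kb, had 115, 114 and 115 CPM in mutant pools and 94.5, 90.6 and 109 CPM in control pools. The groups did not overlap, and the log2 fold change of 0.22 (SE 0.0675) had an edgeR adjusted p of 0.0881, which was 0.00941 without control pool 3. Without other single pools Lgr4 was not called, with an edgeR adjusted p of up to 0.248. Lgr5, known as a stem cell marker of the gut, had 7.48, 9.6 and 5.66 CPM in mutant pools and 5.43, 4.14 and 4.68 CPM in control pools. Its log2 fold change was 0.67 (SE 0.206) with an edgeR adjusted p of 0.09, and 0.0385 without mutant pool 3. Without other single pools Lgr5 was not called, with an edgeR adjusted p of up to 0.279. Rspo3, the most abundant R-spondin per kb of exon, though not per kb of mean transcript, where Rspo1 led in both groups, had 29.9, 17.2 and 19.1 CPM in mutant pools and 21, 17.2 and 17.2 CPM in control pools. The highest value was that of mutant pool 1, as it was for Rspo2, at 4.15 CPM, while every other pool had at most 1.77 CPM. The log2 fold change of Rspo2 was 1.14 with all pools and 0.46 once mutant pool 1 was left out, and neither was called. Rspo4 had 0.755, 0.707 and 0.401 CPM in mutant pools and 1.01, 0.792 and 0.993 CPM in control pools, a log2 fold change of -0.59 that was not called. Rspo1 and Lgr6 overlapped between groups, with log2 fold changes of 0.26 and -0.22.

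Sfrp1, a secreted protein that binds Wnt ligands (chromosome 8, 23411502 to 23449632, plus strand), was the most abundant of the 55 members in CPM and rose in mutants. It had 768, 886 and 924 CPM in mutant pools and 512, 608 and 489 CPM in control pools. Every mutant pool lay above every control pool. The means were 859 ± 81.6 CPM in mutants and 536 ± 63 CPM in controls (SD, n = 3 each), a log2 fold change of 0.68 (SE 0.0939, edgeR adjusted p = 0.00328). The largest adjusted p with 1 library left out was 0.0214, without control pool 1. Per kb of exon, Sfrp1 reached 197 CPM in mutants and 123 CPM in controls, and it made up 82.9% ± 4.65 of the summed level of the 9 secreted antagonists per kb in mutants and 78.8% ± 0.788 in controls. That sum was 237 ± 10.8 CPM per kb in mutants and 156 ± 17.3 in controls. The shares of Sfrp1 overlapped between groups, at 78.3% in mutant pool 1 and 79.2% in control pools 1 and 2. Sum and share depend on the length used. Sfrp2 had 31 CPM per kb of exon in mutants and 67.1 per kb of mean transcript.

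The related Sfrp2 had 82.9, 69.6 and 47.6 CPM in mutant pools and 48.2, 59.6 and 49.1 CPM in control pools. Mutant pool 3 lay below all control pools, and Sfrp2 was not called (edgeR adjusted p = 0.31). The edgeR adjusted p of Sfrp2 was 0.0329 without mutant pool 3. It was up to 0.692 without other single pools, where Sfrp2 was not called. Dkk3, a divergent member of the Dickkopf family, had 13.6, 13 and 12.5 CPM in mutant pools and 10.7, 10.2 and 9 CPM in control pools. Its groups did not overlap, and the log2 fold change of 0.38 (SE 0.104) missed the threshold (edgeR adjusted p = 0.0588). Dkk2, an inhibitor that binds the Lrp co-receptors, averaged 16.6 ± 2.86 CPM in mutants and 17.5 ± 1.78 CPM in controls (SD, n = 3 each) and was not called. Sfrp5 stood at 0.286 to 0.648 CPM in mutants and 0.358 to 1.83 CPM in controls, highest in control pool 2, and Wif1, which binds Wnt ligands directly, at 0.629 to 1.19 CPM in mutants and 0.478 to 1.23 CPM in controls. Both overlapped between groups. Of the 3 antagonists below the filter, Dkk4 had no read in any library, and Dkk1 and Sfrp4 had at most 11 reads.

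Notum encodes a secreted enzyme that removes the lipid from Wnt proteins and is itself a target of the pathway (chromosome 11, 120653788 to 120661175, minus strand). It showed the largest fitted change of any called member. Notum had 3.77, 5.66 and 4.46 CPM in mutant pools and 17, 17.4 and 17.1 CPM in control pools. The control pools lay within 0.5 CPM of each other, and the mutant pools were well below them. The log2 fold change of -1.89 (SE 0.141, 95% interval -2.16 to -1.61, edgeR adjusted p = 0.00019) corresponds to a 3.7-fold lower level in mutants, and it lay between -2.05 and -1.76 with each library left out. An annotated antisense transcript, Notumos, overlaps 708 of the 2408 exon bases of Notum, and the strand setting of the counting is not given in the sources used here.

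Of the other 6 genes in the feedback and target set, 5 were tested. Rnf43, a membrane ligase that removes Frizzled receptors, had 23.7, 22.9 and 24.1 CPM in mutant pools and 28.8, 27 and 28.4 CPM in control pools. The pools of each group lay close together and the groups were apart. The log2 fold change was small, -0.25 (SE 0.064), and its edgeR adjusted p of 0.0461 became 0.106 to 0.168 without any 1 of the 5 pools other than control pool 2, and 0.16 with DESeq2. Its close relative Znrf3 had 31.3, 33.9 and 36.4 CPM in mutants and 41.1, 37.6 and 38 CPM in controls, and Axin2, a destruction complex scaffold widely used as a readout of the canonical branch, had 49, 56.2 and 56.5 CPM in mutants and 63.5, 61.3 and 59.1 CPM in controls. Neither group pair overlapped, but neither gene was called, with log2 fold changes of -0.20 (SE 0.0726, edgeR adjusted p = 0.149) for Znrf3 and -0.18 (SE 0.0667, edgeR adjusted p = 0.145) for Axin2. The 95% interval for Axin2 ran from -0.32 to -0.05. Nkd1, an inhibitor that binds Dishevelled, averaged 41.9 ± 2.7 CPM in mutants and 43.7 ± 3.26 CPM in controls (SD, n = 3 each) and overlapped. Tnfrsf19, a target known from the intestine, was the most abundant of this set per kb of exon, while Axin2 was per kb of mean transcript. Tnfrsf19 had 65, 60 and 55.2 CPM in mutants and 66.6, 53.7 and 58.6 CPM in controls, also overlapping. Sp5, a transcription factor and target gene, had at most 7 reads in any library and was not tested.

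Lef1, one of the nuclear partners of β-catenin (chromosome 3, 131110471 to 131224356, plus strand), had 9.18, 8.07 and 9.78 CPM in mutant pools and 15.8, 14.7 and 12 CPM in control pools. All mutant pools were below all control pools. The log2 fold change was -0.65 (SE 0.131, edgeR adjusted p = 0.0186), and the edgeR adjusted p passed the threshold in neither the fit without mutant pool 2 (0.0758) nor the fit without control pool 1 (0.0741). Tcf7 had 23.5, 22.1 and 26.5 CPM in mutants and 23.3, 22.7 and 23.7 CPM in controls, and Tcf7l2 had 58.9, 58.9 and 56.8 CPM in mutants and 53.9, 62.8 and 55.9 CPM in controls. These members of the same factor family overlapped between groups. Their 95% intervals were -0.11 to 0.21 for Tcf7 and -0.11 to 0.15 for Tcf7l2 on the log2 scale, and the differences between their changes and that of Lef1 were not tested. Of the exon bases of Lef1, 1208 overlap an annotated antisense gene.

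**Figure D3:**
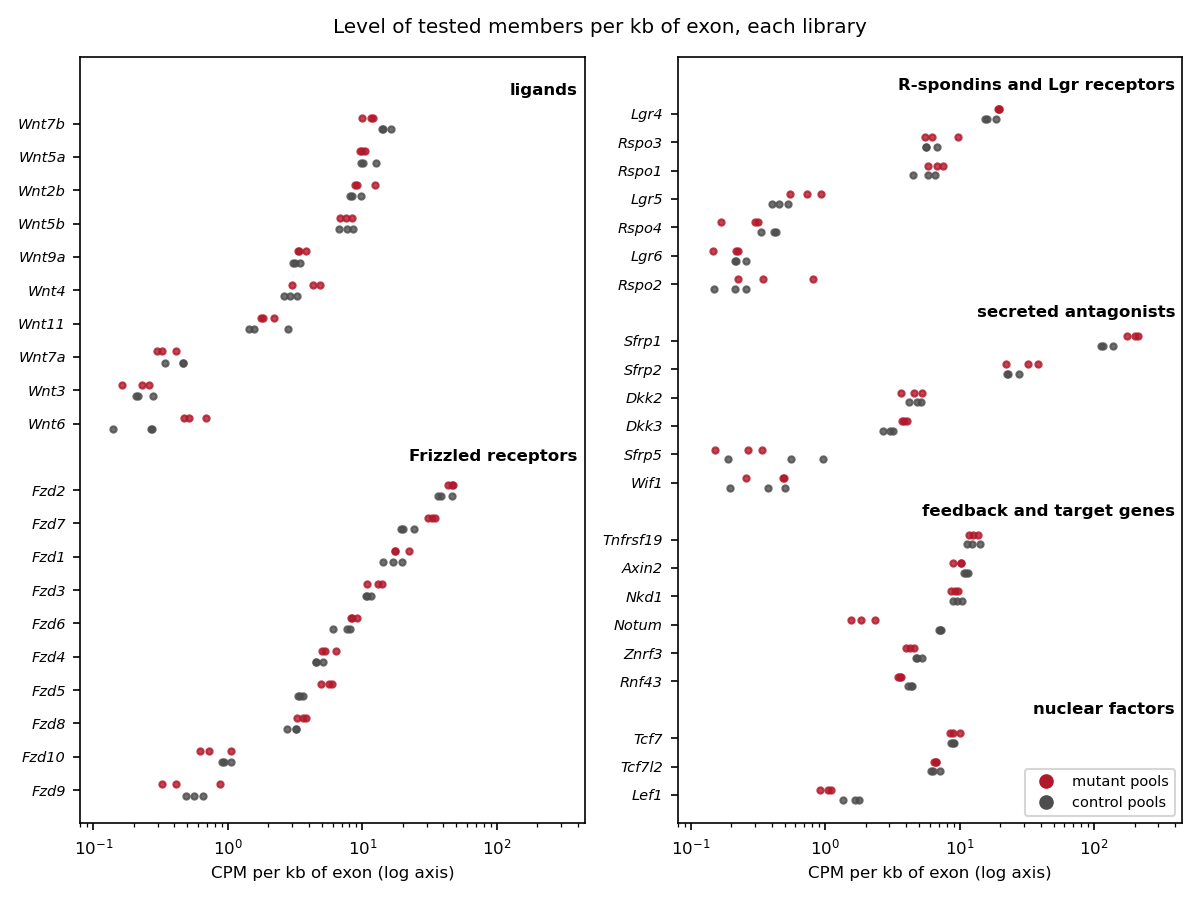
CPM per kb of annotated exon (log axis) for the 42 members tested, with the 3 mutant pools in red above the 3 control pools in grey for each gene; genes are sorted by control level within their role. Sfrp1 stands far right of the other antagonists, at a mean of 197 CPM per kb in mutants and 123 in controls.

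Promoter sequence was at hand for 38 of the 55 members and 4 of the 7 called ones, from RefSeq on GRCm38.p6, and is shown for the receptor genes that rose and for Lef1, which fell. Each stretch is the 250 bases before an annotated start, written in the direction of the gene. Capitals mark the letters CTTTGA or their reverse complement TCAAAG, a form of the core bound by TCF/LEF factors. Other forms of that core were not searched and are not marked.
Fzd5 (chr1:64737751-64738000, minus strand): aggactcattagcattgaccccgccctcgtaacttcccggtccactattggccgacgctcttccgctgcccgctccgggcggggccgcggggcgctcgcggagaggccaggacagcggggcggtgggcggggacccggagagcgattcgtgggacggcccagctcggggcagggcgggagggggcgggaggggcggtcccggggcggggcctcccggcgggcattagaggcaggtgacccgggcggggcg
Fzd7 (chr1:59481897-59482146, plus strand): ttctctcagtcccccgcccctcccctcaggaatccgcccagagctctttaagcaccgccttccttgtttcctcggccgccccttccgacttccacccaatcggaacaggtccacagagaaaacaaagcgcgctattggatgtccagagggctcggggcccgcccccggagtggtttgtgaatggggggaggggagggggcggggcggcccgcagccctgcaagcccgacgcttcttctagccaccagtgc
Lef1, first start (chr3:131110047-131110296, plus strand): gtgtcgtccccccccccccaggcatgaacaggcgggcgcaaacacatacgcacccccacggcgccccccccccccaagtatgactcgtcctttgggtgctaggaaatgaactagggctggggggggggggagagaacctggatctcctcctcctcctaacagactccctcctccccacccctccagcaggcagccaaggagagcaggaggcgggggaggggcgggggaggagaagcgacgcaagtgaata
Lef1, innermost start (chr3:131156044-131156293, plus strand): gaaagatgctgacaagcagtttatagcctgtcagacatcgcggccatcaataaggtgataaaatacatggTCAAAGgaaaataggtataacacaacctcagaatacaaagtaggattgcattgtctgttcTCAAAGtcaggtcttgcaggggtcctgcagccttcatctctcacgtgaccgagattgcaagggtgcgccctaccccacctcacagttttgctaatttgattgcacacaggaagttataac

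Neither of these Frizzled promoters held the motif as searched, CTTTGA or TCAAAG. The Fzd7 stretch does hold the letters acaaag, the reverse complement of CTTTGT, another form of the core that was not searched. Both were rich in G and C, at 76.4% for Fzd5 and 65.2% for Fzd7, against a median of 52.4% over all promoters in the table. Of the 4 annotated starts of Lef1, only the innermost had the motif, as 2 copies on the reverse strand in a stretch with 44.8% G and C. The stretch before the first Lef1 start had 66.4% G and C, slightly above that of Fzd7. The RefSeq windows of Rnf43 held none. Over 300 bases around each start, both strands searched, 7 of 38 members (18.4%) had the motif before or just after at least 1 start, and so did 18.2% of the 27025 genes in the table. The members with a match were Wnt5b, Wnt11, Fzd1, Dkk1, Sp5, Tnfrsf19 and Lef1, of which Lef1 was called changed. A match describes these letters and does not show binding.

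**Figure D4:**
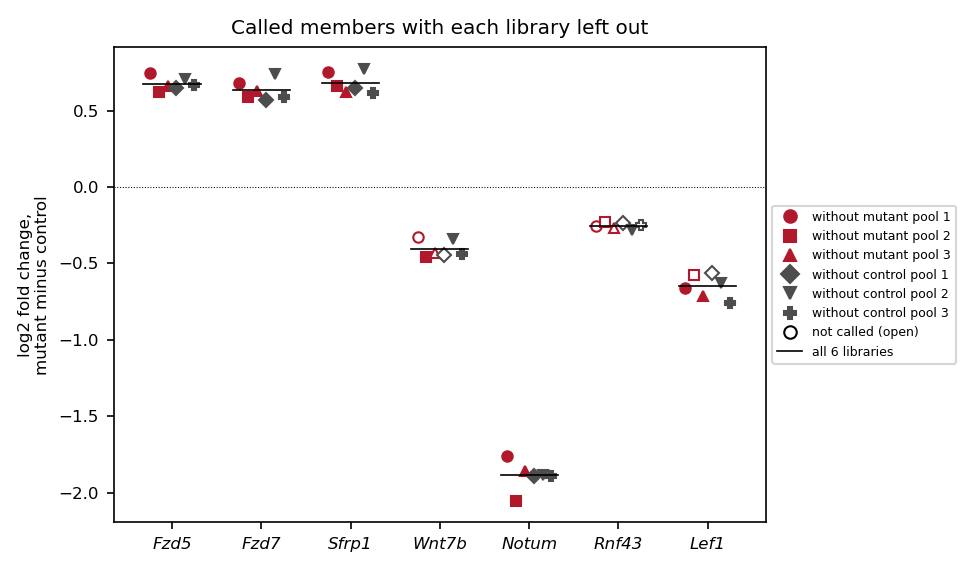
Log2 fold change, mutant minus control, of the 7 called members with each library left out (red, a mutant pool; grey, a control pool); open symbols mark fits in which the gene was not called and lines the value with all 6 libraries. Fzd5, Fzd7, Sfrp1 and Notum stay called in all 6 fits, and Rnf43 stays called in 1 of the 6.

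Counted without regard to the test, 16 of the 42 tested members (38.1%) had no overlap between the 3 mutant and the 3 control values, 9 with higher and 7 with lower values in mutants, where 26.4% of all genes tested did not overlap. The median log2 fold change was -0.01 over the 10 tested ligands, 0.20 over the 10 receptors, 0.25 over the 7 R-spondin and Lgr genes, 0.27 over the 6 tested antagonists, -0.19 over the 6 tested feedback and target genes and 0.02 over the 3 nuclear factors, against 0.00 over all genes tested. Members called without single pools numbered 4 without control pool 1, the lowest count, and 8 without mutant pool 3 or without control pool 2, the highest. Without control pool 1 the only member called lower was Notum. Leaving out any 1 of the mutant pools gave 2 members called lower, and leaving out mutant pool 3 gave 6 called higher. With both pools nearly lacking Xist left out, 7 members were called, and 6 of them were among the 7 called with all libraries.

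Other genes of the pathway moved in both directions. Of 67 further pathway genes in the files, 63 were tested, and edgeR called 7 higher and 5 lower in mutants, or 19% of those tested, where 7.95% of all genes were called, 3.67% higher and 4.28% lower. Whether the share differs from that of all genes was not tested. Both genes listed for the making and release of Wnt ligands were higher. Porcn, the acyltransferase that attaches the lipid to Wnt proteins, had 12.1, 13.49 and 13.7 CPM in mutant pools and 6.39, 7.74 and 6.43 CPM in control pools (log2 fold change 0.94, SE 0.119, edgeR adjusted p = 0.00229). Wls, the carrier of Wnt proteins to the cell surface, had 216, 194 and 195 CPM in mutant pools and 174, 158 and 172 CPM in control pools (0.26, SE 0.0568, edgeR adjusted p = 0.025). Leaving out 1 pool ended the Wls call in 4 of 6 cases, with edgeR adjusted p of 0.0751 for mutant pool 1, 0.0537 for mutant pool 2, 0.0565 for control pool 1 and 0.0513 for control pool 3.

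Among receptors outside the Frizzled family, Ror1, a receptor tyrosine kinase for Wnt5a, had 56, 54 and 54.9 CPM in mutant pools and 40.1, 41.9 and 36.3 CPM in control pools (log2 fold change 0.48, edgeR adjusted p = 0.00282), while the co-receptor genes Lrp5 and Lrp6 were not called. Wisp1, a matricellular gene known as a Wnt target, rose by 0.56 on the log2 scale (edgeR adjusted p = 0.0064). Apcdd1, an inhibitor at the cell membrane, had 20.9, 17.6 and 17.5 CPM in mutants and 28.1, 26 and 28.7 CPM in controls, a log2 fold change of -0.57 (edgeR adjusted p = 0.00587). Dact2, a Dishevelled-binding regulator, changed by -0.52 (edgeR adjusted p = 0.0087) and Celsr3, a cadherin of the planar polarity branch known from neurons, by -1.08 (edgeR adjusted p = 0.00259). None of the 13 tested genes of the Dishevelled and destruction complex set, β-catenin among them, was called by edgeR, DESeq2 or voom, and 1, Apc2, was lower at an unadjusted p under 0.05 in edgeR. The remaining calls were Gpc3, Tle4 and Daam1 higher and Aes and Ascl2 lower, and each of these 5 missed the threshold in at least 3 of the 6 fits that left out 1 library. The count of called pathway genes was 6 when mutant pool 2 or control pool 1 was left out and 7 when mutant pool 1 was. Frzb, the third Sfrp gene, was not called, at 11.4 CPM in mutants and 12.7 CPM in controls.

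**Figure D5:**
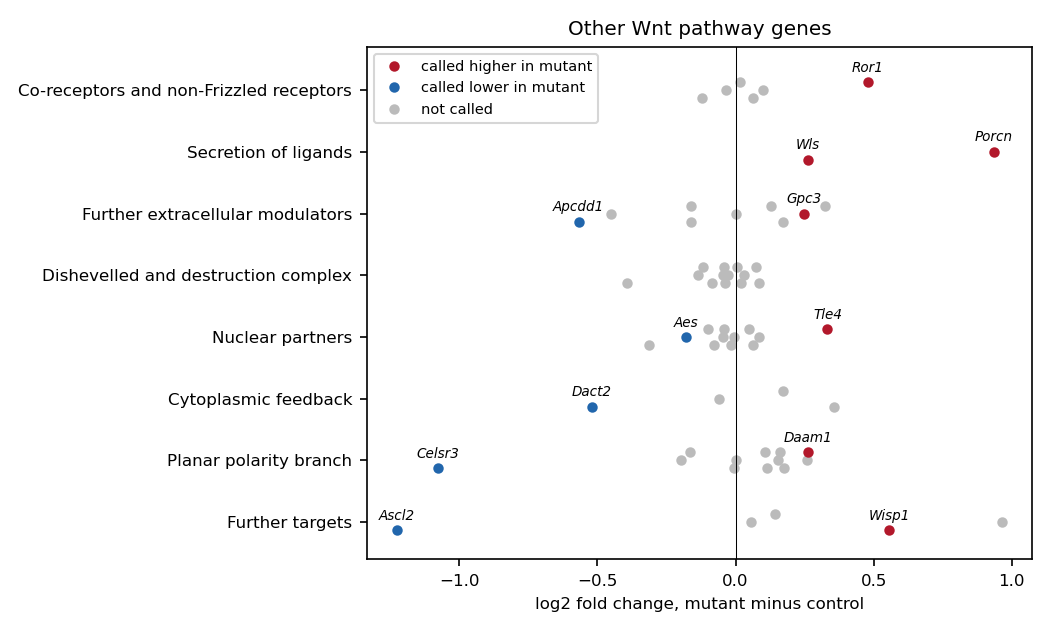
Log2 fold change, mutant minus control, of the 63 tested pathway genes outside the member set, by role; red and blue mark genes called higher and lower in mutants, each named. Porcn lies farthest right among the called genes, at 0.94, and Ascl2 farthest left, at -1.23.

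Markers of several cell types moved between the groups alongside these genes, and their part in the values above was not tested. Of all genes tested, edgeR called 3.67% higher and 4.28% lower. All 7 markers of endocrine progenitors and cells were called lower, with summed levels of 1059 to 1118 CPM in mutant pools and 1620 to 2042 CPM in control pools. Of 8 neural crest and neuron markers 5 were called lower and none higher, with sums of 135 to 157 CPM in mutants and 178 to 234 CPM in controls. Of 9 epithelial markers 2 were called lower, Cdh1 and Nkx6-1, and the list median was -0.24 on the log2 scale, while the summed level, to which Cpa1 contributed most, was 2752 to 3430 CPM in mutants and 2368 to 3362 CPM in controls. Nkx6-1 was not called without any 1 of the mutant pools or without control pool 3 (edgeR adjusted p = 0.0529 to 0.116). Without control pool 3, 1 epithelial marker was called higher and 1 lower. Of 12 mesenchyme markers 2 were called higher, Barx1 and Col1a1, and the list median was 0.07. Negative log2 fold changes were found for 5, none of them called by edgeR with all libraries. The summed level was 7629 to 8544 CPM in mutants and 6834 to 7002 CPM in controls, and Col1a1 and Col3a1 contributed most of it. The sum of the other 10 markers was 1719 to 1794 CPM in mutants and 1604 to 1810 CPM in controls. The count of mesenchyme markers called higher was 0 with any of mutant pool 2, control pool 1 or control pool 3 left out. DESeq2 called 4 higher and 1 lower, and edgeR with the replicate block called 2 higher and 1 lower. Of 6 tested genes listed for mesothelium 1, Krt19, was called higher and 5 were not called, with a list median of 0.24. Krt19 is not limited to mesothelium, so its rise cannot be assigned to that cell type. Of the blood lists, 3 of 5 erythroid, 3 of 3 neutrophil and 0 of 4 macrophage markers were called higher by edgeR. Of the remaining lists, 1 of 5 endothelial markers and 1 of 5 pericyte and smooth muscle markers were called higher. The endothelial call, Flt1, was lost without mutant pool 1, mutant pool 3, control pool 1 or control pool 3 (edgeR adjusted p = 0.0724 to 0.113). Of 7 gut, stomach and spleen markers 1 was called higher and 1 lower. The one called higher was Barx1, which is also counted in the mesenchyme list. The one called lower was Onecut3, which was not called with voom (adjusted p = 0.062). Among fits that left out 1 library it stayed called only without control pool 3, with an edgeR adjusted p of 0.0824 to 0.128 otherwise. No list had a marker at 0 in every library.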

How the data were processed

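The authors deposited raw whole-number read counts per gene for 6 libraries, each from its own pool of pancreata. The submitters' processing notes name cutadapt 1.13, STAR, HTSeq 0.6.1p1, DESeq2 and build mm10; how strands were counted, which annotation and which STAR version are not given in the sources used. Counts were tested with edgeR 4.0.16 in R 4.3.3, keeping genes by filterByExpr (minimum count 10), scaling by TMM and fitting genotype alone with the quasi-likelihood F test; p-values were adjusted by Benjamini-Hochberg over 14687 genes. CPM were computed with TMM-scaled library sizes. Each SE is the size of the log2 fold change divided by the root of F. The 95% limits assume a normal error, which makes them narrower than the F test would. Log2 fold changes are mutant minus control. Positions and exon lengths are from GENCODE M21 (GRCm38, the same assembly as mm10). Of the members, 10 have exons that overlap another annotated gene, with 0 overlaps on the same strand, so their reads may be shared or lost. Only 1 of the overlapping genes, AU022754 at Wnt7b, is in the count files.

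The members and lists were chosen with earlier results of these data known. Values in every library are given for called members, for uncalled members without overlap and a log2 fold change of at least 0.3 in size, and for the 2 members of each role with the highest level per kb. Other examples were chosen after their values were seen. Alternatives were other scalings and filters, DESeq2 1.42.0, voom in limma 3.58.1, robust estimation, a replicate block, and leaving out libraries. No protein sequences were used here.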

Additional observations from a re-analysis of the deposited data

How the results depend on the processing

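Fzd5, Fzd7, Sfrp1 and Notum were called in every fit, and none of the 7 called members changed sign in any. With each library left out, the members called numbered 4 to 8, those called higher 3 to 6, those called lower 1 to 4, the other pathway genes called 6 to 15, and all genes called 629 to 1421. At an adjusted p under 0.01, 4 members were called. Rnf43 was not called without a filter on low counts (edgeR adjusted p = 0.0677) or with DESeq2 (0.16). Correlations of deviations from the group means were 0.133, 0.107 and -0.0844 for same-numbered libraries and ran from -0.266 to 0.2 for the others. Mutant pool 1 correlated best with control pool 3 (0.153), and both nearly lacked Xist. With 3 libraries per group, these values cannot decide whether same-numbered libraries are paired. With the replicate block, 6 members and 1138 genes were called, and Rnf43 was not (edgeR adjusted p = 0.0795). In that fit Wnt11 was also not called, and its log2 fold change turned positive, at 0.038. With both pools nearly lacking Xist left out, 665 genes were called, and the log2 fold changes of Fzd1 (-0.068), Rspo3 (-0.075), Tcf7l2 (-0.014) and Tnfrsf19 (-0.064) turned negative. With total-count scaling the log2 fold change was -0.0088 for Tcf7l2 and -0.016 for Tnfrsf19. The log2 fold change of Wnt11 was 0.00066 without a filter and 0.058 with voom, and it was called in neither fit. The cause was not tested for these changes. With each library left out, uncalled members that changed sign ranged from -0.62 to 0.19 (Fzd9), -0.025 to 0.40 (Rspo3), -0.065 to 0.10 (Tnfrsf19), -0.24 to 0.074 (Wnt3), -0.19 to 0.36 (Wnt11), -0.11 to 0.071 (Wnt5b), -0.19 to 0.051 (Dkk2), -0.027 to 0.11 (Tcf7), -0.028 to 0.080 (Tcf7l2), -0.11 to 0.51 (Wif1) and -0.19 to 0.0041 (Wnt5a). The 13 members below the filter had at most 12 reads in any library, and low depth and absent expression cannot be told apart for them.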
